A study of Mus musculus with 12 samples.

Results

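The comparison described here is mechanical overload against sham surgery in mouse muscle progenitors that carry deletable alleles of both Yap1 and Taz. Its members are the 3 libraries labelled cdKO overload and the 3 labelled cdKO sham, which are 6 of the 12 libraries in the series, and they were chosen by genotype and surgery alone. The cells are fibro-adipogenic progenitors (FAPs), the resident mesenchymal cells of skeletal muscle, sorted as Pdgfra+ from plantaris muscle at 1000 cells per tube. The cdKO mice combine Pdgfra-CreERT2 with Yap1 flox/flox and Taz flox/flox, and the other 6 libraries, 3 control sham and 3 control overload, come from mice with Pdgfra-CreERT2 alone. Both genotypes therefore carry the same inducible Cre, driven by the promoter of the gene that also serves as the sorting marker. Taz is the gene listed as Wwtr1. The sources used here give neither the tamoxifen schedule, the days between surgery and sorting, the age and sex of the mice nor the floxed exons, and they do not say whether mice were pooled. Nor do they say that the 3 libraries of a group came from separate mice, so the p-values cover only how these libraries vary, and that variation may be technical.

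YAP and TAZ are transcriptional co-activators that enter the nucleus when cells are stretched, spread or freed of Hippo kinase activity, and there they bind TEAD factors at genes such as Ccn1 and Ccn2. FAPs keep the connective tissue of muscle, give rise to fibroblasts and adipocytes, and supply matrix and secreted factors to muscle stem cells. Overloading the plantaris, usually done by disabling muscles that share its work, makes it hypertrophy, and the question of the comparison is which programs of the progenitors respond to load when both co-activators can be deleted.

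The values are read counts per gene, given below as CPM, in which each count is divided by the scaled size of its library. The 6 libraries held 559911 to 1019875 counts each, so that 3 counts corresponded to 3.12 to 5.80 CPM. On the first principal component, which held 46.4% of the variance over all 12 libraries, the 3 cdKO sham libraries lay between -34.1 and -28.7, and the cdKO overload libraries lay at 32.6, 7.39 and 38.4 for replicates 1, 2 and 3. Replicate 2 of the overload group thus stood nearest to sham, and it was the overload library nearest to the sham values for 384 of the 520 genes that rose (73.8%) and for 396 of the 545 that fell (72.7%). Sham replicate 2 stood apart on the second component, at -41.1. Both libraries numbered 2 also had the most Xist, a transcript of the inactive X chromosome, with 212 CPM in sham and 93.6 CPM in overload against 3.09 to 42.5 CPM in the other cdKO libraries. The Y-linked genes Ddx3y, Eif2s3y, Kdm5d and Uty summed to 118 CPM in sham replicate 2 and 176 CPM in overload replicate 2. In the other cdKO libraries they summed to 203 to 270 CPM, so every cdKO library held Y-linked transcripts. The part of these transcripts in the results was not tested. Of the 9 FAP markers checked, all passed the filter on low counts, with Dcn, a small proteoglycan, at 6154 to 26520.4 CPM and Pdgfra at 259 to 899.6 CPM over the cdKO libraries.

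Markers of other cells were low but not equal between the groups. Over 12 endothelial markers, of which 7 passed the filter on low counts, the summed level was 119 to 309 CPM in sham and 52.5 to 83.2 CPM in overload. Pericyte and smooth muscle markers summed to 468 to 667 CPM in sham and 375 to 408 CPM in overload, and 10 markers of Schwann cells and nerve to 568 to 682 CPM and 351 to 467 CPM. Erythroid markers summed to 5.50, 116 and 130 CPM in the sham libraries and to 0, 0 and 1.12 CPM under overload. For macrophage and myeloid markers the ranges overlapped, at 28.1 to 56.8 CPM in sham and 13.5 to 72.8 CPM in overload, and lymphocyte markers summed to 21.9 to 31.2 and 7.80 to 18.5 CPM. Several defining genes were near 0, with 0 to 6 counts of Pax7 (muscle stem cells), 0 counts of Myod1 (myoblasts), 0 to 5 of Adgre1 (macrophages), 0 to 6 of Cd3e (T cells), 0 to 3 of Ckm (myofibres) and 0 to 2 of Sox10 (Schwann cells) in any cdKO library. Ptprc, the pan-leukocyte gene, had 1 to 20. The endothelial marker Pecam1 had 2, 17 and 5 counts in sham and 2, 8 and 4 in overload. The macrophage marker Cd68 had 0, 10 and 1 in sham and 1, 4 and 0 in overload. Both were highest in sham replicate 2. Of 3 tested muscle stem cell and myoblast markers 1 was called higher under overload. This was Vcam1, with a log2 fold change of 1.24 and a call lost without cdKO overload replicate 1. Msc (0.90) and Itga7 (-0.97) were not called, nor were any of 3 tested myofibre markers. In these bulk samples fewer cells of a type and less RNA per cell cannot be told apart, and the part of other cells in the results was not tested.

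Transcripts of both targeted genes were present in every cdKO library. Yap1 (chromosome 9, 7931999 to 8004596, GRCm38) was at 71.5, 56.2 and 65.7 CPM in the 3 sham libraries and 40.2, 22.1 and 33.7 CPM in the 3 overload libraries, all 3 lower. Wwtr1 (chromosome 3, 57455649 to 57575910) was at 36.7, 40.6 and 27.1 CPM in sham and 20.1, 18.2 and 22.5 CPM in overload. The log2 fold changes were -1.0 ± 0.32 for Yap1 (adjusted p = 0.0379) and -0.79 ± 0.31 for Wwtr1 (adjusted p = 0.0864), where the error is the standard error of the fit. The Yap1 call was lost without control sham replicate 2 (adjusted p = 0.0547), and without each of the 6 cdKO libraries in turn, at 0.103, 0.0516 and 0.0819 for sham replicates 1, 2 and 3 and 0.0616, 0.140 and 0.106 for overload replicates 1, 2 and 3. Reads from a library that tags the 3′ end can come from outside a deleted exon, so these levels do not show whether the floxed exons were removed. Pdgfra itself, the receptor by which the cells were sorted and whose promoter drives the Cre, was at 565, 899.6 and 593 CPM in sham and 321, 391 and 259 CPM in overload, a change of -1.09 ± 0.26 (adjusted p = 0.0062; 0.0595 without cdKO overload replicate 3).

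Overload changed 1065 of 8161 tested genes in the cdKO progenitors (13%; edgeR quasi-likelihood test, Benjamini-Hochberg adjusted p under 0.05). Of these, 520 rose (6.37%) and 545 fell (6.68%), and the median change of all tested genes was -0.02 on the log2 scale. A change of at least 2-fold was fitted for 370 of the risen and 452 of the fallen genes, and one of at least 4-fold for 70 and 92. The overload and sham libraries did not overlap for 1022 of the 1065, where over all tested genes overload lay wholly above sham for 15.4% and wholly below for 14.7%. Leaving out 1 library moved the count to 423 without cdKO overload replicate 3, 473 without cdKO overload replicate 1 and 551 without cdKO sham replicate 2. Leaving out both libraries numbered 2 gave 923. Genes named below passed in each of the 12 fits that left out 1 library, unless another value or a count for its list is given, and of 203 called genes chosen for naming, 171 were still called without both cdKO libraries numbered 2.

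Several of the largest rises were in matrix genes. Tnc (chromosome 4, 63959785 to 64047015), which encodes tenascin-C, an anti-adhesive matrix protein of wounds and tendon, was at 31.2, 7.29 and 27.1 CPM in sham and 1411, 1204 and 1438 CPM in overload. No overload library came near the sham range, and the log2 fold change was 6.05 ± 0.49 (adjusted p = 2.19e-07). Postn (chromosome 3, 54361109 to 54391037), encoding the collagen-binding protein periostin, went from 34.8, 22.9 and 61.9 CPM to 2155, 1374 and 2119.6 CPM (5.61 ± 0.41, adjusted p = 1.04e-08). For Timp1 (chromosome X, 20870166 to 20874735), an inhibitor of matrix metalloproteinases, the libraries read 16.5, 4.16 and 15.5 CPM in sham and 1234, 573 and 1426 CPM in overload (6.61 ± 0.57, adjusted p = 2.53e-06). Cthrc1, a secreted protein of activated fibroblasts, rose from 1.83, 0 and 5.8 CPM, at or under the level of 3 counts, to 117, 74.1 and 185 CPM (5.85 ± 0.63, adjusted p = 1.09e-05). The groups did not overlap in any of these genes, which was a condition of their choice. Replicate 2 was the lowest of the 3 overload libraries for all 4.

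Other large rises included signalling genes. Il1rl1, the receptor of interleukin 33, was at 14.7, 6.25 and 15.5 CPM in sham and 334, 144 and 408 CPM in overload, a log2 fold change of 4.69 ± 0.53 (adjusted p = 4.17e-05). Inhba, which encodes the activin A subunit, was at 71.5, 45.8 and 52.2 CPM in sham and 1069, 270.4 and 1031 CPM in overload (3.82 ± 0.46, adjusted p = 8.35e-05). Lif, a cytokine of the interleukin 6 family, was at 34.8, 12.5 and 30.9 CPM in sham and 487, 85.8 and 403 CPM in overload (3.71 ± 0.64, adjusted p = 0.00327). In all 3 genes overload replicate 2 reached less than the other overload libraries. It stayed above every sham library, as the rule by which these genes were chosen required. Aldh1a3, an enzyme of retinoic acid synthesis, rose by 3.66 ± 0.63, and Lcn2, a secreted iron-siderophore carrier, by 3.6 ± 0.55. Spp1, encoding osteopontin, stood at 1.83, 0 and 1.93 CPM in sham and 80.3, 14.3 and 179 CPM in overload, and its adjusted p of 0.0384 rose to between 0.0592 and 0.173 in the 9 fits that lacked control sham replicate 1, 2 or 3, control overload replicate 3, cdKO sham replicate 1, 2 or 3, or cdKO overload replicate 1 or 3.

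**Figure D1:**
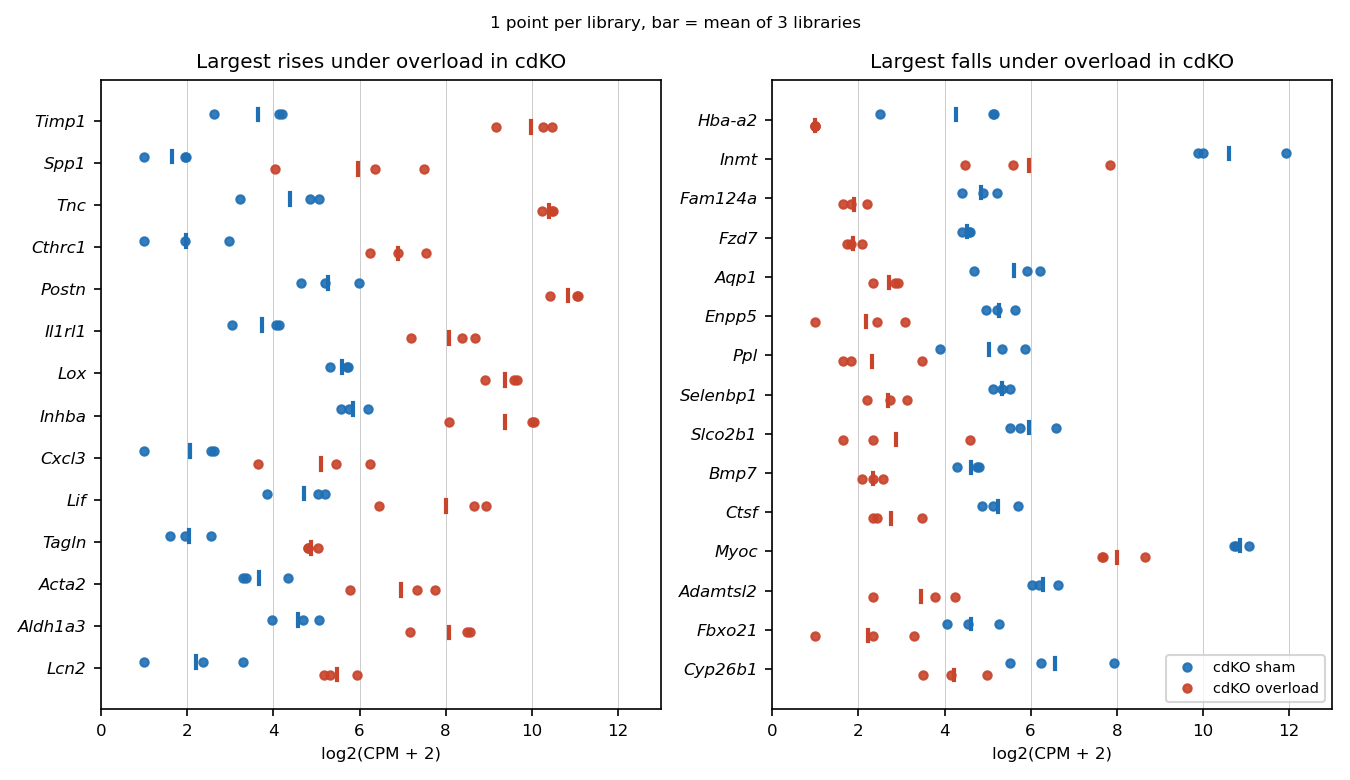
Level of 14 of the 15 genes with the largest rise and the 15 with the largest fall, as log2(CPM + 2), in the 3 cdKO sham libraries (blue) and the 3 cdKO overload libraries (red); each point is 1 library and each bar the mean of 3. The libraries do not overlap for any gene shown, a condition of their choice, and within the overload group the points of Spp1 and Inmt are spread the widest.

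The largest falls were in genes of varied function. Myoc (chromosome 1, 162639155 to 162649693), encoding the secreted glycoprotein myocilin, was at 1692, 2150.1 and 1738 CPM in sham and 199, 400.4 and 203 CPM in overload (-2.8 ± 0.40, adjusted p = 0.000195). Fzd7, a Wnt receptor, was at 22, 21.9 and 19.3 CPM in sham and 1.54, 1.3 and 2.25 CPM in overload, under 3 counts in each overload library (-3.49 ± 0.72, adjusted p = 0.00211). Adamtsl2, an ADAMTS-like protein of microfibrils, was at 97.2, 63.5 and 71.5 CPM and 3.09, 11.7 and 16.8 CPM (-2.78 ± 0.44, adjusted p = 0.000214). None of the sham libraries overlapped the overload libraries in these 3 genes, which was a condition of their choice. Fam124a, Enpp5, Ppl, Selenbp1 and Ctsf fell, with log2 fold changes of -3.88, -3.38, -3.19, -2.99 and -2.81; Ppl encodes the cytolinker periplakin, Selenbp1 a selenium-binding methanethiol oxidase and Ctsf the lysosomal protease cathepsin F. Inmt, an indolethylamine methyltransferase, had the widest spread, at 1017, 3933 and 943 CPM in sham and 20.1, 226 and 46 CPM in overload, and its adjusted p of 0.0368 rose to between 0.0505 and 0.154 in the 8 fits that lacked control sham replicate 2 or 3, control overload replicate 2, cdKO sham replicate 1, 2 or 3, or cdKO overload replicate 1 or 3. The alpha globin gene Hba-a2 was at 3.67, 33.3 and 32.9 CPM in sham and had 0 counts in the overload libraries, at least 5.87-fold lower against a floor of 3 counts per library. It is itself a member of the erythroid list whose sums are given above. Its call was lost, with adjusted p from 0.0601 to 0.146, without any 1 control sham library and without any 1 cdKO library other than sham replicate 1.

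Matricellular genes, whose products signal to cells from within the matrix, rose in most cases. Of 19 tested members 12 rose and 1 fell, with a median log2 fold change of 1.25. Besides Tnc, Postn and Cthrc1, Thbs4, a tendon thrombospondin, was at 399.6, 194 and 369 CPM in sham and 3972, 3668 and 3861 CPM in overload (3.59 ± 0.40, adjusted p = 7.22e-06). Thbs1, an activator of latent TGF-beta, was at 885, 314 and 835 CPM in sham and 2182, 1966 and 1863 CPM in overload (1.57 ± 0.30, adjusted p = 0.00116). Ccn4, Vcan (versican) and Cd44, a hyaluronan receptor, rose by 2.75, 1.25 and 1.76. The member that fell was Ccn3, a CCN family protein also called Nov, at 156, 151 and 102 CPM in sham and 9.27, 27.3 and 23.6 CPM in overload (-2.73 ± 0.32, adjusted p = 5.19e-06). Fibronectin (Fn1, 0.42) was among the 6 members that did not pass. Sparcl1 and Smoc2, of the SPARC family, were counted in other lists, where they fell, as given below.

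**Figure D2:**
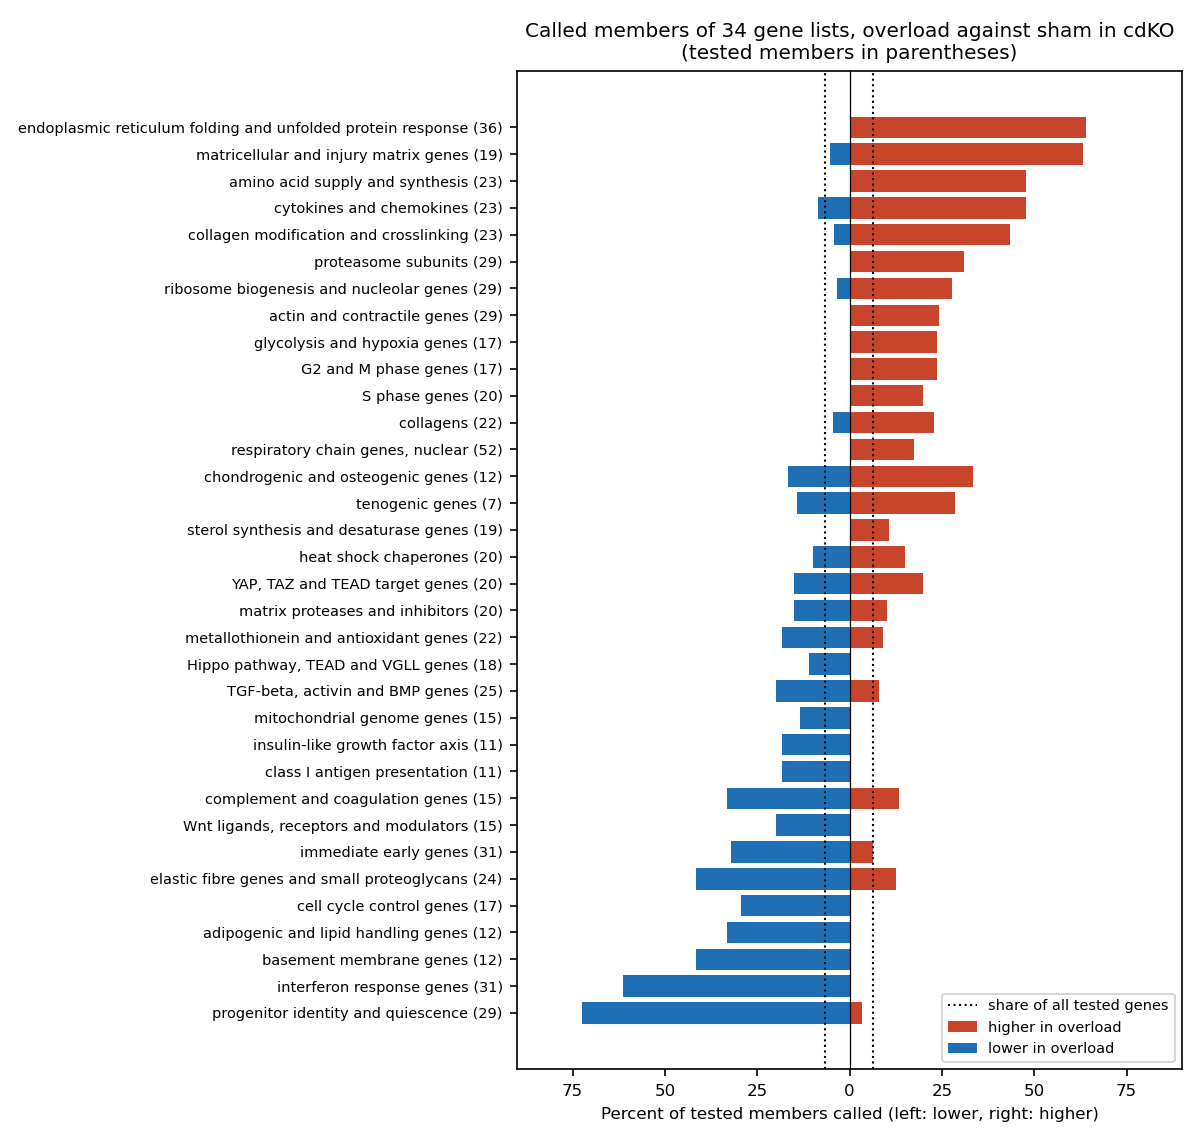
Percent of the tested members of each of 34 gene lists that rose (right, red) or fell (left, blue) under overload in cdKO progenitors, with the number tested in parentheses; the dotted lines give the shares over all tested genes, 6.37% and 6.68%. The bars for endoplasmic reticulum folding and matricellular genes reach farthest to the right, and those for progenitor identity and interferon response genes farthest to the left.

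Collagen genes divided. Of 22 tested, 5 rose, 1 fell and 16 did not pass, with a median of 0.23 (2 fell without control overload replicate 1 or cdKO overload replicate 2). Col3a1, the fibrillar collagen of loose tissue and repair, was at 16667, 14561 and 19882 CPM in sham and 49329.9, 41018 and 43869 CPM in overload (1.39 ± 0.27, adjusted p = 0.00142). Col1a1 rose by 1.17 ± 0.26, Col5a2 by 1.18 ± 0.25, Col12a1, which decorates fibrils under tension, by 1.75 ± 0.25, and the short-chain Col8a1 by 2.6 ± 0.29. Col8a1 showed the separation most clearly among these, with 112, 48.9 and 131 CPM in sham and 639.6, 590.3 and 501 CPM in overload. The fall was in Col6a6, a chain of the microfibrillar collagen VI, at 22, 30.2 and 36.7 CPM and 4.63, 9.1 and 4.49 CPM (-2.25 ± 0.45, adjusted p = 0.00167). Enzymes that modify and crosslink collagen rose in 10 of 23 tested members and fell in 1, Pcolce2, with a median of 0.74. Lox, the copper enzyme that crosslinks collagen and elastin, was at 51.3, 37.5 and 50.3 CPM in sham and 766, 477 and 806 CPM in overload (3.9 ± 0.33, adjusted p = 3.26e-08). The lysyl hydroxylase Plod2 rose by 1.62 ± 0.25 and the prolyl 3-hydroxylase P3h1 by 1.33 ± 0.28. The count of risen members was 4 without cdKO sham replicate 2, 5 without cdKO overload replicate 1 and 3 without cdKO overload replicate 3, and the fall of Pcolce2 passed only with all libraries and without control overload replicate 1 or cdKO sham replicate 1.

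Elastic fibre genes and small proteoglycans moved mostly the other way, with 10 of 24 lower, 3 higher and a median of -0.69. Dcn, which limits the width of collagen fibrils, was at 22700.3, 26520.4 and 16188 CPM in sham and 6154, 9531 and 7629 CPM in overload (-1.49 ± 0.29, adjusted p = 0.00154). Among the falls were the fibulins Fbln1 (-1.92) and Efemp1 (-1.38), the proteoglycans Podn (-1.82) and Prelp (-1.5), and Ltbp4, which holds latent TGF-beta on elastic fibres (-1.73). The 3 that rose were Bgn, Fbn1 and Emilin1, at 0.78, 0.78 and 1.06, and their count fell to 0 or 1 without control sham replicate 3 (0), cdKO sham replicate 1 (1), 2 (1) or 3 (0), or cdKO overload replicate 1 (0) or 3 (0). Basement membrane genes had 5 of 12 lower and none higher (median -0.71). Sparcl1, a matricellular protein of the SPARC family, was placed in this list and had its smallest p. It was at 1219, 1718 and 1307 CPM in sham and 400.2, 654 and 445 CPM in overload (-1.5 ± 0.29, adjusted p = 0.00125). The basement membrane count was 3 or fewer in 9 of the 12 fits that left out 1 library: 3 without control sham replicate 2 or 3, control overload replicate 2 or 3, or cdKO sham replicate 1 or 3, 2 without cdKO sham replicate 2, and 1 without cdKO overload replicate 1 or 3. Among 20 proteases and inhibitors, 2 were higher and 3 lower; besides the rise of Timp1, its relative Timp3 went from 170.5, 169 and 232 CPM to 71.1, 54.6 and 51.6 CPM (-1.69 ± 0.27, adjusted p = 0.000214). That list counted 4 higher without cdKO sham replicate 1 and 1 without cdKO sham replicate 2 or cdKO overload replicate 1 or 3, and 1 lower without cdKO overload replicate 1 or 3.

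Genes of actin filaments and contraction rose in 7 of 29 tested members, fell in 0, and had a median of 0.66. Acta2, the smooth muscle actin that marks myofibroblasts, was at 18.3, 8.33 and 7.73 CPM in sham and 159, 53.3 and 212 CPM in overload (3.66 ± 0.51, adjusted p = 0.000285). Tagln, a calponin-related actin-binding protein, was at 1.83, 1.04 and 3.87 CPM in sham and 30.9, 26 and 25.8 CPM in overload (3.67 ± 0.64, adjusted p = 0.000488). The crosslinker Actn1 rose by 1.59 ± 0.28 and the tropomyosin Tpm4 by 1.54 ± 0.28. The count was 11 without control overload replicate 1 and 4 without cdKO sham replicate 2 or cdKO overload replicate 1. Acta2 and Tagln are also made by smooth muscle cells. The joint list of pericyte and smooth muscle markers summed to less under overload, as given above, and the part of such cells in these 2 rises was not tested.

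Of the genes used as readouts of YAP and TAZ, 20 were tested, of which 4 were higher (among them Thbs1, Ccdc80 and Ccn2), 3 lower (Gadd45b, F3, Amotl2) and 13 not called, with a median of -0.18. Ccn2, which encodes connective tissue growth factor, was at 249, 167 and 77.3 CPM in sham and 691, 784 and 832 CPM in overload. Its libraries did not overlap, and the log2 fold change was 2.22 ± 0.57 (adjusted p = 0.0251), which rose to 0.118 and 0.0584 without cdKO sham replicates 2 and 3 and to 0.0679, 0.0564 and 0.0986 without cdKO overload replicates 1, 2 and 3. Ccn1, its closest relative on the list, was at 51.3, 191 and 67.7 CPM in sham and 77.2, 119.6 and 83.1 CPM in overload, overlapping ranges with a change of -0.2 ± 0.35 (adjusted p = 0.783). Ankrd1 had 0 to 4 counts in the cdKO libraries and was not tested. F3, which encodes tissue factor, was at 169, 188 and 75.4 CPM in sham and 49.4, 63.7 and 60.6 CPM in overload (-1.32 ± 0.31, adjusted p = 0.00654; 0.0538 without both libraries numbered 2). The count of risen members was 2 without cdKO sham replicate 2 or 3 or cdKO overload replicate 1 or 3, and that of fallen members 1 without cdKO overload replicate 3. In the Hippo pathway list, 2 of 18 fell and 0 rose, and this share called (11.1%) was no larger than that of all tested genes (13%). The scaffold Amotl1 was at 174, 244 and 242 CPM in sham and 97.3, 119.6 and 68.5 CPM in overload (-1.21 ± 0.25, adjusted p = 0.00236). The other was Yap1 itself, whose call was lost in the 7 fits given above. In this list 1 member rose without control overload replicate 1 or 2. The TEAD core motif, GGAATG on either strand, was found in the promoter windows of 6 of 14 tested targets that had one (42.9%), 14.2% of all tested genes and 14.7% of all windows. It was in 13.2% of the windows of risen genes and 18.0% of those of fallen genes.

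Progenitor identity and quiescence genes were the list with the largest share of falls. Of 29 tested, 21 fell and 1 rose, with a median of -1.51, and the count of falls was 13 without cdKO overload replicate 3. The 1 rise, in Cxcl14, passed in 2 of the 12 fits that left out 1 library, those without control overload replicate 1 or 2, and 1 member also rose without both cdKO libraries numbered 2. Smoc2, a secreted calcium-binding protein, was at 1479, 1361 and 1293 CPM in sham and 354, 564 and 454 CPM in overload (-1.59 ± 0.25, adjusted p = 0.000196). Dpep1, a membrane dipeptidase, was at 255, 322 and 307 CPM in sham and 47.9, 84.5 and 47.2 CPM in overload (-2.3 ± 0.27, adjusted p = 5.57e-06). For Scara5, a ferritin receptor, the values were 75.2, 149 and 98.6 CPM and 17, 29.9 and 8.98 CPM (-2.56 ± 0.34, adjusted p = 2.89e-05). In each of the 3 genes the lowest sham library was above the highest overload library. Clec3b (tetranectin), Gsn (gelsolin) and Hsd11b1, which activates glucocorticoids, fell, with log2 fold changes of -2.5, -1.76 and -1.51. Cd34 and Ly6a (Sca-1), surface antigens used to sort FAPs, were at -0.33 and 0.16 and did not pass. Adipogenic and lipid genes had 4 of 12 lower and 0 higher (median -1.21). They included Zbtb16, a zinc finger factor, at 53.2, 42.7 and 73.5 CPM in sham and 1.54, 16.9 and 6.74 CPM in overload (-2.67 ± 0.45, adjusted p = 0.000368), lipoprotein lipase (Lpl, -1.55 ± 0.28) and Apoe (-1.72 ± 0.33).

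Joint-surface and tendon genes included some of the most abundant transcripts that rose. Prg4, which encodes the lubricant lubricin, was at 944, 1067 and 1106 CPM in sham and 10787, 7165 and 11411 CPM in overload (3.24 ± 0.30, adjusted p = 1.07e-07). Cilp, a cartilage intermediate layer protein, was at 403, 395 and 369 CPM in sham and 1811, 2423 and 1875 CPM in overload (2.39 ± 0.26, adjusted p = 1.67e-06). Runx1, a transcription factor, went from 104, 59.3 and 71.5 CPM to 239, 224 and 187 CPM (1.48 ± 0.25, adjusted p = 0.000356). These 3 genes were separated between the groups in all libraries. Among 12 chondrogenic and osteogenic genes 4 rose and 2 fell, with 5 of the 12 estimates above 0 and a median of -0.23. Among 7 tenogenic genes 2 rose and 1 fell, with a median of 0.22. The first list counted 2 higher without cdKO sham replicate 2 or 3 or cdKO overload replicate 1, and 0 or 1 lower in 9 of the 12 fits (0 without cdKO sham replicate 1 or cdKO overload replicate 1 or 2, and 1 without any control sham library, control overload replicate 2, cdKO sham replicate 3 or cdKO overload replicate 3), and the second 0 lower without cdKO overload replicate 3.

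Secreted signals were divided by family. Of 23 cytokine and chemokine genes, including receptors, 11 rose and 2 fell, with a median of 0.46. The monocyte attractant Ccl2 was at 1527, 1354 and 1573 CPM in sham and 11835, 5812 and 17896 CPM in overload (3.0 ± 0.34, adjusted p = 2.89e-06). Cxcl5, a neutrophil attractant, was at 29.3, 43.7 and 40.6 CPM in sham and 439, 219.7 and 629 CPM in overload (3.48 ± 0.41, adjusted p = 1.72e-05). Il11, a fibroblast cytokine of the interleukin 6 family, was at 9.17, 11.5 and 3.87 CPM in sham and 139, 57.2 and 116 CPM in overload (3.54 ± 0.53, adjusted p = 0.000387). Overload replicate 2 was the lowest of its group in each and still exceeded all sham libraries. Ccl7, Cxcl2, Il6 and Il33, the ligand of Il1rl1, rose by 1.84, 2.64, 1.5 and 1.48. The eosinophil attractant Ccl11 and the homing factor Cxcl12 fell, at -1.39 and -0.99. Of 25 genes of TGF-beta, activin and BMP signalling, 2 rose (Inhba and the follistatin-like Fstl1) and 5 fell, among them the ligand Gdf10 (-1.67 ± 0.30) and Id2 and Id3, targets of BMP signalling (-1.83 ± 0.37 and -1.81 ± 0.34). The risen count was 1 without cdKO sham replicate 2 or 3 or cdKO overload replicate 3, and the fallen count 3 without the last. In the insulin-like growth factor list 2 of 11 fell, 0 rose (1 fell without cdKO overload replicate 1); Htra3, a protease that cleaves IGF-binding proteins, was at 1250.2, 1724 and 860.1 CPM and 315, 589 and 392 CPM (-1.57 ± 0.30, adjusted p = 0.00122). Wnt genes had 3 of 15 lower (5 without cdKO overload replicate 2) and 0 higher, led by Wnt5a at 60.5, 96.8 and 61.9 CPM in sham and 18.5, 31.2 and 13.5 CPM in overload (-1.82 ± 0.33, adjusted p = 0.000681).

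Many genes of the secretory pathway rose. Genes of protein entry and folding in the endoplasmic reticulum (ER) and of the unfolded protein response had 23 of 36 tested members higher and 0 lower, and 35 of the 36 estimates were above 0, with a median of 1.08. The count was 15 without cdKO sham replicate 2 and 13 without cdKO overload replicate 1. The translocon subunit Sec61b was at 27.5, 35.4 and 38.7 CPM in sham and 176, 119.6 and 135 CPM in overload (2.07 ± 0.30, adjusted p = 6.52e-05). Ssr4, of the translocon-associated complex, rose by 1.45 ± 0.25, the ER chaperone Hyou1 by 1.86 ± 0.33 and the retrieval receptor Kdelr3 by 1.46 ± 0.28. Members at the head of the unfolded protein response were among the 13 that did not pass, with Hspa5 (BiP, the main ER chaperone) at 0.22, Xbp1 at 0.40 and Atf4 at -0.40. The ER stress element, a pair of half-sites bound by NF-Y and ATF6, was searched as CCAAT, any 9 bases and CCACG on both strands of windows from 250 bases before to 50 bases after the start site (RefSeq, GRCm38.p6). It was present in 7 of the 27 tested members that had a window (25.9%), against 0.176% of 6260 tested genes and 0.119% of 32851 windows. Among called members with a window it was in 4 of 17 (23.5%). These 4 members were also the only carriers among risen genes with a window (1.02%), and 0% of fallen ones held it. The windows of 3 called members, each stable to leaving out a library, are shown 5′ to 3′ on the gene's strand, with the fixed letters of the match in capitals.
Creld2: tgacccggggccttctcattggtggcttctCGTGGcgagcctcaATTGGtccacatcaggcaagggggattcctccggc
Pdia6: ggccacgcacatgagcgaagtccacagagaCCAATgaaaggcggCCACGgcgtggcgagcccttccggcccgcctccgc
Calr: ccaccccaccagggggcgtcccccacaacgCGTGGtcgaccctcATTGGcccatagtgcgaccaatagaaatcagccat
These stretches lie at chr15:88819490-88819568 (plus strand), chr12:17266461-17266539 (plus strand) and chr8:84847045-84847123 (minus strand). The matches lie between 126 and 108, 98 and 80, and 162 and 144 bases before the start site, and those of Creld2 and Calr read on the opposite strand. Creld2, an ER stress chaperone, was at 31.2, 29.2 and 29 CPM in sham and 105, 58.5 and 158 CPM in overload (1.85 ± 0.36, adjusted p = 0.00155). The disulfide isomerase Pdia6 rose by 1.37 ± 0.29 and calreticulin (Calr) by 1.18 ± 0.26.

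Amino acid supply rose beside it, with 11 of 23 tested genes higher, 0 lower and a median of 0.99. The count was 6 without cdKO sham replicate 2 or cdKO overload replicate 3 and 7 without cdKO overload replicate 1. Slc7a11, the cystine-glutamate exchanger, was at 20.2, 7.29 and 15.5 CPM in sham and 85, 58.5 and 127 CPM in overload (2.74 ± 0.38, adjusted p = 4.31e-05). Serine and one-carbon enzymes rose, Psat1 by 1.56 ± 0.29, Shmt2 by 1.09 ± 0.25 and the mitochondrial Mthfd2 by 2.01 ± 0.38. Gars, which charges the glycine tRNA, was at 42.2, 33.3 and 38.7 CPM in sham and 138, 50.7 and 132 CPM in overload (1.5 ± 0.34, adjusted p = 0.00551); overload replicate 2 lay just above the sham range. The core of the amino acid response element, the ATF4 site TGATGNAA on either strand, was in 6 of 17 tested members with a window (35.3%) and in 6 of the 11 called ones, against 2.70% of tested genes and 3.97% of all windows. The core was in 3.05% of risen genes with a window and 3.64% of fallen ones. The 12 risen carriers included the 6 called members. The calls of Slc7a11 and Gars were stable to leaving out a library. That of Asns, another carrier, was not, and Chac1, Aars and Pycr1 were not examined gene by gene. Slc7a11 and Gars are shown in the same form as above.
Slc7a11: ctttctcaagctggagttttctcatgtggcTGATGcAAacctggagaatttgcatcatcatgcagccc
Gars: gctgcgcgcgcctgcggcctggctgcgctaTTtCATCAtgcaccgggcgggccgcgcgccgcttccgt
They lie at chr3:50443642-50443709 (minus strand) and chr6:55037941-55038008 (plus strand), with the marked match 66 to 59 bases before the start site in Slc7a11 and, on the opposite strand, 30 to 23 bases before it in Gars. The Slc7a11 stretch holds a further match, on the opposite strand, that is left in lower case.

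Other growth machinery rose in smaller shares. Ribosome biogenesis genes had 8 of 29 higher and 1 lower (median 0.64), with the polyamine enzyme Srm at 77, 51 and 79.2 CPM in sham and 219, 130.0 and 262 CPM in overload (1.58 ± 0.30, adjusted p = 0.00117). Proteasome subunits had 9 of 29 higher and 0 lower (median 0.78), and all 29 estimates were above 0; the lid subunit Psmd14 was at 110.0, 80.2 and 118 CPM in sham and 294, 186 and 335 CPM in overload (1.42 ± 0.26, adjusted p = 0.000884). Nuclear genes of the respiratory chain had 9 of 52 higher and 0 lower (median 0.65), led by Uqcrq of complex III (1.47 ± 0.29), whereas the 15 genes of the mitochondrial genome had 0 higher and 2 lower (median 0.06). The share of the mitochondrial genome called, 13.3%, was close to the 13% of all tested genes. Glycolysis and hypoxia genes had 4 of 17 higher, 0 lower, with the glucose transporter Slc2a1 at 29.3, 13.5 and 21.3 CPM in sham and 86.5, 41.6 and 96.6 CPM in overload (1.86 ± 0.37, adjusted p = 0.00159). These counts moved with single libraries. Ribosome biogenesis had 5 higher without cdKO sham replicate 2 or cdKO overload replicate 1 and 4 without cdKO sham replicate 3 or cdKO overload replicate 3, and its count of falls was 0 without any 1 cdKO library other than overload replicate 2 and 1 without both cdKO libraries numbered 2. Proteasome subunits had 4 higher without cdKO sham replicate 3 or cdKO overload replicate 1, 3 without cdKO overload replicate 3 and 15 without cdKO overload replicate 2. The respiratory chain had 5 without control sham replicate 1 or 3 or control overload replicate 3, 3 without cdKO sham replicate 1, 4 without cdKO overload replicate 1, 2 without cdKO sham replicate 3 or cdKO overload replicate 3, and 16 without both libraries numbered 2. Glycolysis had 2 without any 1 cdKO sham library or cdKO overload replicate 1, and 1 without cdKO overload replicate 3, and the mitochondrial genome 0 or 1 lower without any 1 cdKO library other than sham replicate 3.

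Cell cycle genes were at low levels. S phase genes had 4 of 20 tested members higher and 0 lower, with a median of 0.76, and G2 and M phase genes 4 of 17 higher, 0 lower, with a median of 1.46. Summed over the lists, S phase genes were at 392, 336 and 419 CPM in sham and 640, 455 and 640 CPM in overload, and G2 and M phase genes at 229, 174 and 276 CPM in sham and 626, 306 and 573 CPM in overload. Both sums were higher in each overload library than in any sham library, and overload replicate 2 was the lowest of the 3. The condensin subunit Smc2 was at 22, 18.7 and 21.3 CPM in sham and 94.2, 37.7 and 94.3 CPM in overload (1.87 ± 0.39, adjusted p = 0.00247), and Smc4, its partner, rose by 1.32 ± 0.33. The S phase calls were Mcm4, Mcm2, Rrm2 and Mcm3; their count was 0 without cdKO sham replicate 2, 1 without cdKO overload replicate 1 or 3 and 7 without cdKO overload replicate 2, where the G2 and M count was also 7. Cell cycle control genes, a list of cyclins, their kinases, inhibitors and growth arrest genes, fell in 5 of 17 cases (Cdkn1c, Cdkn1a, Btg2, Gas1 and Gas6, the last a ligand of receptor kinases) and rose in 0 (median -0.50). The inhibitor Cdkn1c (p57) was at 143, 206 and 145 CPM in sham and 23.2, 65 and 23.6 CPM in overload (-2.15 ± 0.35, adjusted p = 0.000387), and Cdkn1a (p21) at 1896, 1856 and 2074 CPM and 584, 963 and 715 CPM (-1.36 ± 0.28, adjusted p = 0.00177). No member of the 3 lists went against these directions among those called. The Gas1 call was lost in 6 of the 12 fits that left out 1 library, with adjusted p from 0.0516 to 0.143. Those fits lacked control sham replicate 2, control overload replicate 1 or 2, cdKO sham replicate 2, or cdKO overload replicate 1 or 3.

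Interferon response genes fell in 19 of 31 tested members and rose in none, and all 31 estimates were below 0, with a median of -1.48. The count was 10 without cdKO overload replicate 1 and 9 without cdKO overload replicate 3. Ifi207, a DNA-sensor family member, was at 555, 471 and 526 CPM in sham and 89.6, 189 and 112 CPM in overload (-1.99 ± 0.29, adjusted p = 6.67e-05). The guanylate-binding protein Gbp2 was at 346, 249 and 286 CPM in sham and 75.7, 98.8 and 94.3 CPM in overload (-1.7 ± 0.29, adjusted p = 0.00037). Irgm1, an immunity-related GTPase, was at 97.2, 70.8 and 61.9 CPM in sham and 9.27, 28.6 and 11.2 CPM in overload (-2.2 ± 0.38, adjusted p = 0.000488). In all 3 genes overload replicate 2 stood highest in its group and still below every sham library. The factors Stat2 and Irf1 fell, at -1.88 and -2.48. The core of the interferon-stimulated response element, searched as 2 copies of GAAA with any 2 bases between them on both strands, was in 18 of the 26 tested members with a window (69.2%), against 3.85% of tested genes and 3.44% of all windows. Among called members with a window the core was in 12 of 16 (75%). It was in 5.58% of risen genes with a window and 7.52% of fallen ones. The 31 fallen carriers included these 12 members. The 3 genes above are shown because they had the smallest p among called members that carry it.
Ifi207: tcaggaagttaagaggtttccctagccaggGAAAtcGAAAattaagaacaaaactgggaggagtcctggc
Gbp2: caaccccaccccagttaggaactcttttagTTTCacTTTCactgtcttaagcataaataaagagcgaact
Irgm1: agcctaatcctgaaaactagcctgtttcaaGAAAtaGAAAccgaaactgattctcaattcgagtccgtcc
They lie at chr1:173741811-173741880 (minus strand), chr3:142620574-142620643 (plus strand) and chr11:48871411-48871480 (minus strand), with the match 41 to 32, 59 to 50 and 30 to 21 bases before the start site; in Gbp2 it reads on the opposite strand. The Irgm1 stretch holds a further match that overlaps the marked one and is left in lower case. A match in any of these searches is a run of letters and not a measured binding site, a window was counted once however many matches it held, and overlaps between different motifs were not examined.

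Related immune genes fell in part. Class I antigen presentation had 2 of 11 lower and 0 higher, and complement and coagulation genes 5 of 15 lower and 2 higher. Both depended on single libraries: the first counted 4 without control overload replicate 1, 1 without cdKO sham replicate 2 or cdKO overload replicate 3 and 0 without cdKO overload replicate 1, and the second 1, 2 and 3 lower without cdKO sham replicate 2, cdKO overload replicate 1 and cdKO overload replicate 3, with 0 or 1 higher without control sham replicate 1 or 3, control overload replicate 3 or any cdKO library other than overload replicate 2. Immediate early genes, which respond within minutes to stimuli and to tissue digestion, had 10 of 31 lower and 2 higher (median -0.64), and 6 lower without cdKO overload replicate 1. Fos was at 541, 1172 and 619 CPM in sham and 119, 309 and 125 CPM in overload (-2.08 ± 0.36, adjusted p = 0.000906), and Klf2 at 141, 179 and 92.8 CPM and 26.3, 45.5 and 31.4 CPM (-2.01 ± 0.31, adjusted p = 0.00013). The phosphatase Dusp1 and the mRNA decay factor Zfp36 fell, at -1.33 and -1.37. Against them Nr4a3, an orphan nuclear receptor, was at 203, 173 and 174 CPM in sham and 419, 373 and 409.8 CPM in overload (1.13 ± 0.23, adjusted p = 0.00199), and it was 1 of the 2 that rose; without any of 7 libraries (control sham replicate 2 or 3, control overload replicate 3, cdKO sham replicate 2 or 3, cdKO overload replicate 1 or 3) that count was 1. The list of metallothioneins and antioxidant genes had 4 of 22 lower and 2 higher (median 0.28). The glutathione transferase Gstm1 was at 1226, 1258 and 939 CPM in sham and 218, 429 and 227 CPM in overload (-1.97 ± 0.33, adjusted p = 0.000488), and the 2 rises were in the extracellular superoxide dismutase Sod3 (1.01 ± 0.26) and in Gclc, of glutathione synthesis (0.98 ± 0.28). That list counted 2 lower without cdKO sham replicate 1 or cdKO overload replicate 1 or 2, 2 lower without both cdKO libraries numbered 2, and 1 lower without cdKO sham replicate 2 or cdKO overload replicate 3. It counted 0 higher without cdKO sham replicate 2 or cdKO overload replicate 3, 1 without cdKO overload replicate 1 and 4 without cdKO overload replicate 2. Heat shock chaperones had 3 of 20 higher and 2 lower (median -0.16). Dnajb1, a co-chaperone of Hsp70, was at 341, 179 and 392 CPM in sham and 116, 104 and 120.1 CPM in overload (-1.41 ± 0.28, adjusted p = 0.0016), and its relative Dnaja1 changed by -0.75 ± 0.25. The 3 rises were in subunits of the cytosolic chaperonin, Cct5 (1.04 ± 0.27), Cct2 (1.06 ± 0.28) and Cct8 (0.74 ± 0.24). The count of rises was 1 without cdKO sham replicate 2 or cdKO overload replicate 1 and 0 without cdKO sham replicate 3 or cdKO overload replicate 3, and the count of falls was 1 without control sham replicate 1 or 2, control overload replicate 2, cdKO sham replicate 1 or 2 or cdKO overload replicate 1.

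The same comparison in control progenitors, made in the same fit on 6 other libraries, called 1768 genes (21.7%; 867 higher, 10.6%, and 901 lower, 11%). Of the 1065 genes called in cdKO, 788 were called the same way in control, which is 74.0% of the cdKO calls and 44.6% of the control calls, and 0 were called in opposite directions. The shared genes were 380 that rose and 408 that fell. Their number was 377 without cdKO overload replicate 3, 395 without cdKO overload replicate 1 and 449 without cdKO sham replicate 2. The absolute change was the smaller of the 2 in cdKO for 551 of the 788, and the median absolute log2 fold change was 1.33 in cdKO and 1.57 in control. Several leading genes were alike in direction, with Postn at 5.61 in cdKO and 5.51 in control, Timp1 at 6.61 and 6.87, Lox at 3.90 and 4.09, Thbs1 at 1.57 and 1.63, Prg4 at 3.24 and 3.10, and Myoc at -2.80 and -3.29. Erythroid markers, among them Hba-a2, were not: over 3 tested members the median was -6.99 in cdKO and 6.05 in control. In control 0 of them were called, and 0 passed the interaction. Without the filter on low counts, the edgeR interaction passed for Hba-a2 (-9.96, adjusted p = 1.48e-07).

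**Figure D3:**
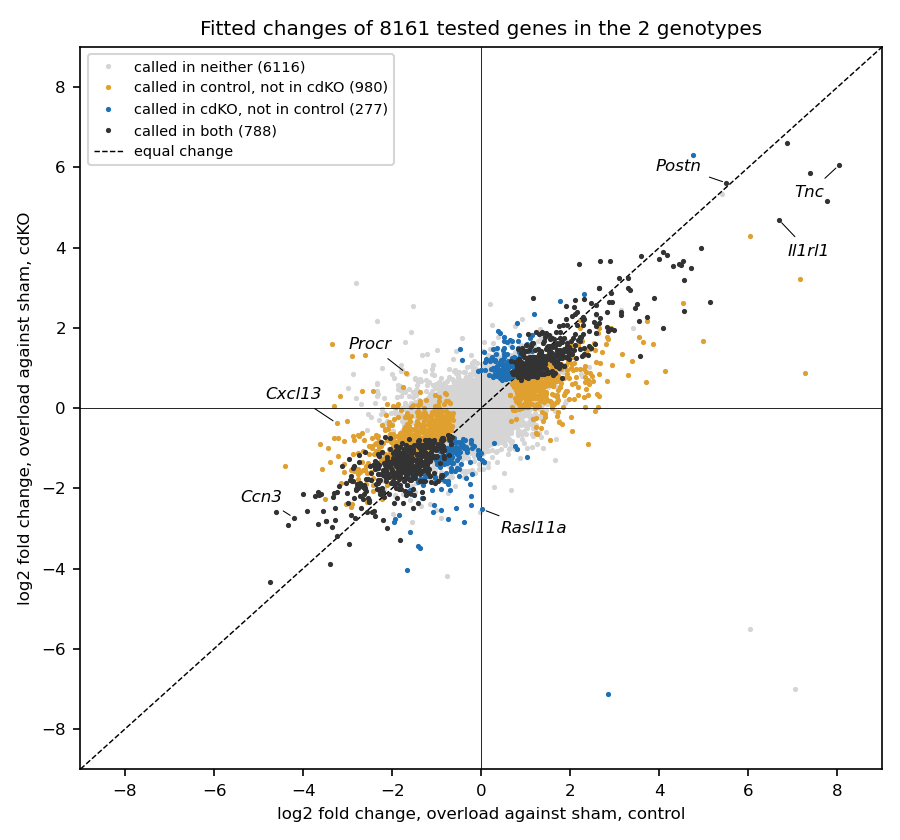
Fitted log2 fold change of overload against sham in control (horizontal axis) and in cdKO (vertical axis) for each of the 8161 tested genes, coloured by where the change was called. The 788 genes called in both lie at the lower left and upper right near the dashed line of equal change, and Procr and Cxcl13 lie off it.

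A difference between the genotypes in the response to load, tested as the interaction, was called for 0 genes (0%) by edgeR with Benjamini-Hochberg adjustment, with 427 at an unadjusted p under 0.05 and a smallest adjusted p of 0.167. DESeq2 called 1, limma voom 0, edgeR without a filter on low counts 10, and edgeR on counts thinned to the smallest library 1. Of the 277 cdKO calls that did not pass in control, 266 had the same sign there and 0 passed the interaction. Procr (chromosome 2, 155751117 to 155755471), the endothelial protein C receptor that FAPs also express, had the smallest p. It was at 244, 167 and 244 CPM in cdKO sham and 385, 234 and 573 CPM in cdKO overload, against 248, 712 and 457 CPM in control sham and 141, 147 and 153 CPM in control overload. The change was 0.87 ± 0.33 in cdKO (adjusted p = 0.0853) and -1.69 in control (adjusted p = 0.00113), and the interaction was 2.56. It passed under DESeq2 (adjusted p = 0.00167), without the filter (2.64e-05), with thinned counts (0.0202), without control sham replicate 1 (0.00723), without cdKO overload replicate 2 (0.00569) and without both cdKO libraries numbered 2 (0.0288). Rasl11a (chromosome 5, 146845071 to 146847726), a Ras-like GTPase, changed in cdKO and stood at similar levels in the control groups. It was at 34.8, 69.8 and 19.3 CPM in cdKO sham, 7.72, 6.5 and 7.86 CPM in cdKO overload, 11.3, 24.6 and 35.6 CPM in control sham and 25.8, 20.1 and 25.7 CPM in control overload. Its change was -2.52 ± 0.47 in cdKO (adjusted p = 0.000943) and 0.02 in control, and its interaction of -2.55 had an adjusted p of 0.339 by edgeR. The chemokine Cxcl13 stood at 42.2, 47.9 and 40.6 CPM in cdKO sham and 40.2, 20.8 and 40.4 CPM in cdKO overload and fell by 3.25 in control. Its interaction did not pass by edgeR with the filter on low counts (adjusted p = 0.183), but passed without that filter (adjusted p = 0.0172).

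Set beside each other, the lists had these values in the 2 genotypes. Matricellular genes had a median of 1.25 in cdKO and 1.30 in control, ER genes 1.08 and 1.15, amino acid genes 0.99 and 1.15, and collagens 0.23 and 0.39. Progenitor identity genes had a median of -1.51 in cdKO and -1.83 in control. For interferon response genes the medians were -1.48 and -2.31, with 19 falls in cdKO and 25 in control. S phase genes had medians of 0.76 and 1.48 with 4 and 13 rises, and G2 and M phase genes 1.46 and 2.36 with 4 and 12. The interaction estimate was below 0 for 17 of 20 S phase genes and 17 of 17 G2 and M phase genes, and the change was the smaller in cdKO for 27 of 31 interferon genes, but 0 of these genes passed the interaction test, where 3, 3 and 9 had an unadjusted p under 0.05. In cdKO overload replicate 2, the library nearest to sham, the mean log2 CPM of interferon genes was 5.19, against 4.33 and 4.28 in replicates 1 and 3, and that of G2 and M phase genes was 3.50, against 4.48 and 4.38. The summed level of the endothelial markers is given above for the same libraries, and the part of it and of that library in these values was not tested.

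**Figure D4:**
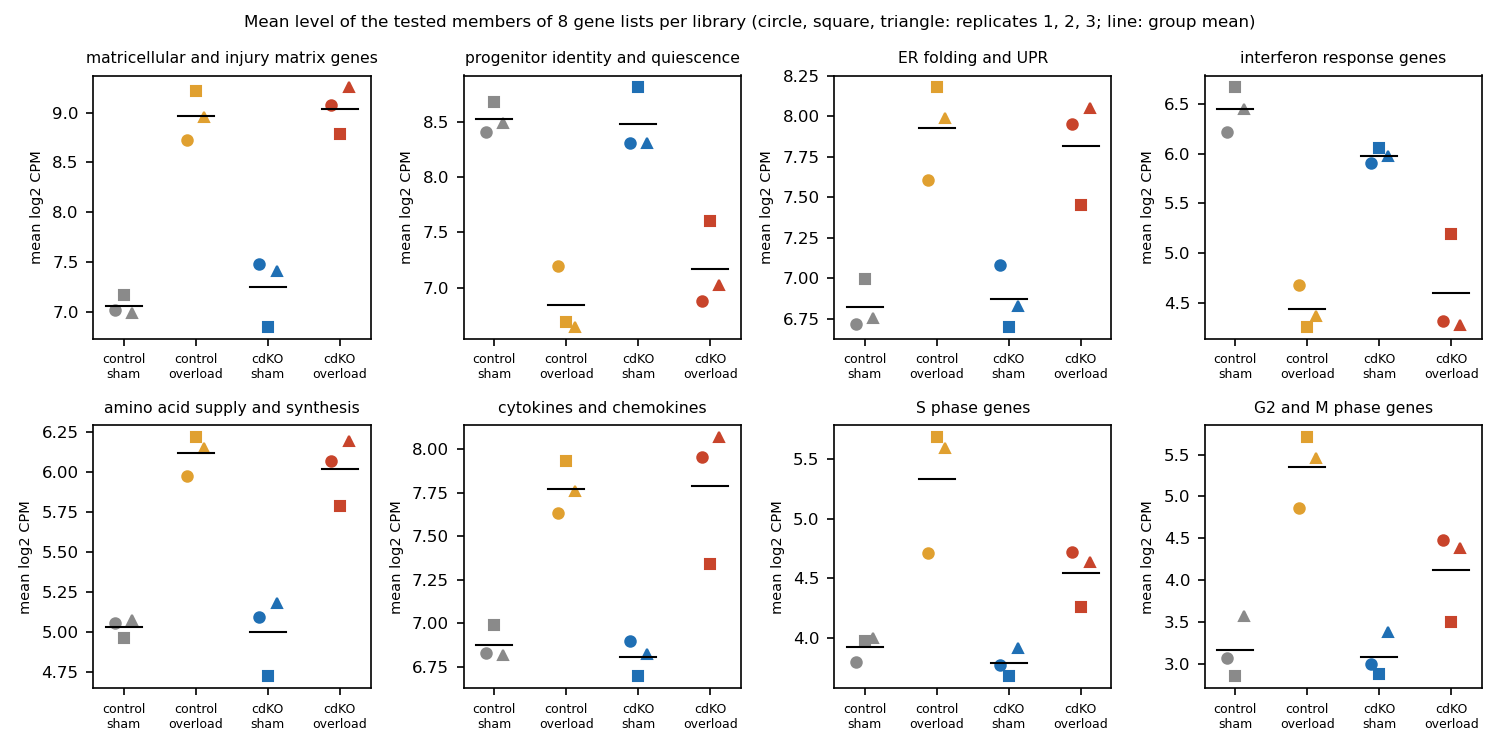
Mean log2 CPM over the tested members of 8 gene lists in each of the 12 libraries (circle, square and triangle for replicates 1, 2 and 3; the line is the group mean of 3). Sham and overload libraries of cdKO do not overlap in any of the 8 panels, and cdKO overload replicate 2 (red square) is the overload library of its group nearest to sham in each.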

How the data were processed

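Counts of reads per gene came from RNA-seq of 12 libraries of 1000 sorted cells each, built with a 3′-end amplification protocol per the labels. The authors deposited raw counts for 54100 genes in 1 table. The submitters' processing notes name Trim Galore 0.6.6, HISAT2 2.2.1, featureCounts 2.0.1, DESeq2 1.26.0 and the build GRCm38; none of the sources used here gives the annotation release, strand setting or use of molecular identifiers. Reads shared by near-identical or overlapping genes, such as the globin and Ifi200 families, may therefore be split or merged. Without identifiers, counts are not independent molecules, and counting intervals and the floor of 3 counts cover counting error only.

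Libraries were grouped by the genotype and tissue labels. With edgeR 4.0.16 in R 4.3.3, genes were filtered (filterByExpr, leaving 8161), scaled by TMM and fitted by the robust quasi-likelihood method in 1 model with a mean for each of the 4 groups, so that all 12 libraries share the estimate of spread. The contrasts were overload against sham in cdKO, the same in control, and their difference (interaction); p-values were adjusted by Benjamini-Hochberg over all tested genes at 0.05. The fit was tested on simulated data. CPM were computed on the scaled library sizes, and mean log2 CPM with a prior count of 2. Depth of 336437 to 1564581 counts per library limits genes near the floor.

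Genes were named by rule: the targets Yap1 and Wwtr1, the sort marker Pdgfra, the readouts Ankrd1, Ccn1, Ccn2 and Thbs1, the 15 largest called changes each way among genes whose groups did not overlap and reached 20 CPM in one of them, the 10 smallest interaction p each way, and up to 5 members by p from each of 43 lists (34 of processes, 9 of cell markers); other list members were picked with their values in view. A few genes that these rules name are not reported here. The comparison and the lists were chosen with earlier results of these data known. All 54100 gene identifiers matched GENCODE M21, the source of gene coordinates; promoter windows of RefSeq (GRCm38.p6) matched 6260 of the 8161 tested genes by symbol. Alternatives were DESeq2 1.42.0, limma 3.58.1 voom with quality weights, other scaling factors, no filter, thinned counts, a non-robust fit, a replicate block, fits of the compared groups only, leaving out each library, and, added after seeing the data, leaving out both cdKO libraries numbered 2.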

Additional observations from a re-analysis of the deposited data

How the results depend on the processing

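No called gene changed sign in cdKO under any setting run. Without the filter on low counts, over 37990 genes, 702 were called in cdKO, 10 in the interaction and 515 the same way in both genotypes; the cause was not tested. The interaction count was 1 under DESeq2, 1 with thinned counts and 1 without both libraries numbered 2. Leaving out 1 library gave 423 to 1287 calls in cdKO, 377 to 985 shared calls and 0 to 1 interaction calls. The other settings gave 804 to 1178 calls in cdKO, and upper-quartile scaling 480 higher and 566 lower. Without both libraries numbered 2, the counts were 2 higher and 1 lower among chondrogenic and osteogenic genes, 1 lower among YAP and TAZ targets, and 2 lower and 0 higher among complement genes.

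Samples shared only a replicate number: the correlations of deviations between cdKO sham and overload libraries of the same number were 0.111, 0.199 and -0.105, and sham replicate 3 correlated best with another number. With the replicate number as a block, 1035 genes were called in cdKO, of which 992 were among the 1065.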
